A study of Mus musculus with 8 samples.

Results

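The genes described here encode proteins of the extracellular matrix and the enzymes that remodel it, in the retina of mice after hyperoxia. A list of 39 matrix genes was matched by symbol to the array's probe sets that carry exactly 1 gene symbol, and 38 were measured, each by a single probe set, among the 19938 genes measured in this way. *Fbn1*, the gene of fibrillin-1, had no such probe set and was not analysed here. The list held 5 fibrillar collagens, 8 other collagens, 4 basement membrane glycoproteins, 6 proteoglycans, 2 fibre glycoproteins, 5 matricellular proteins, 7 enzymes and the hyaluronan receptor *Cd44*.

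C57BL/6J mice, a strain whose photoreceptors are vulnerable to oxygen, were reared and kept in dim cyclic light. From an age of 83 to 90 days, the exposed mice breathed 75% oxygen for 14 days, and age-matched controls were kept in normoxia. Retinas were divided into an inferior region, where degeneration in this model begins, and a superior region. The 4 groups were hyperoxia-exposed inferior, control inferior, hyperoxia-exposed superior and control superior retina, with 2 arrays each, and each sample pooled tissue from 2 animals, so the spread between arrays is a spread between pools. The comparisons ask which matrix genes changed with hyperoxia in each region, which differed between the regions, and whether the change with hyperoxia differed between them.

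The extracellular matrix is a network of secreted proteins and sugar chains outside cells. In the retina it forms the basement membranes of the blood vessels and of the inner limiting membrane, Bruch's membrane beneath the pigment epithelium, and the interphotoreceptor matrix around the photoreceptor segments. Collagens and laminins give it structure, proteoglycans carry sulphated sugar chains that hold growth factors, matricellular proteins adjust how cells respond to it, and proteases, lysyl oxidases and sulphatases alter it once it has been laid down. Glia, vascular cells, pigment epithelium and invading macrophages can all produce it, and after injury its composition is often remodelled.

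All values are log2 signals that the authors normalised together, so a difference of 1 is a doubling. A level is given for a gene only against the same gene's level in other samples. The median over all probe sets lay between 6.98 and 7.05 on the 8 arrays. Of the 38 matrix genes, 7 had a mean under 6. The retinal identity of the samples was clear from the 10 measured rod genes, whose summed signal was between 16.07 and 16.35 on the log2 scale on every array. In these bulk samples, fewer cells of a type and less RNA per cell cannot be told apart.

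Promoter sequences were read from RefSeq (build GRCm38.p6) as 300 base windows, with 250 bases before the annotated start and 50 from it on, and 26 of the 38 genes had such a window. *Thbs1* and *Sulf1*, the genes that passed the test below, had none. *Col4a1* and *Col4a2*, which encode the chains of the main collagen of basement membranes, are shown because they are read from opposite strands with starts 21 bases apart, and because both were highest on the same array, control inferior replicate 2, by 1.203 and 1.291 on the log2 scale over the next array. Apart from that array their values moved together little, and their superior differences between exposed and control retina were -0.06 for *Col4a1* and 0.14 for *Col4a2*. *Adamts1*, a secreted protease, is shown as a gene whose values were higher after hyperoxia in both regions. These 3 were chosen after their values were seen. Capitals mark the 78 bases shared by both collagen windows, which read as reverse complements of each other, and in *Adamts1* the TATA motif.
Col4a1: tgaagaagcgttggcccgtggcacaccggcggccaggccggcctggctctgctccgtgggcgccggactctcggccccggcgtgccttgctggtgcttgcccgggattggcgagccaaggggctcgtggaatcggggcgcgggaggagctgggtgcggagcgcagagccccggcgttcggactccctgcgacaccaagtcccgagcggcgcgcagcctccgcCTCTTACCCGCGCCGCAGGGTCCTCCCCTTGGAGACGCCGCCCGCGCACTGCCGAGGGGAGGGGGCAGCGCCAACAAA
Col4a2: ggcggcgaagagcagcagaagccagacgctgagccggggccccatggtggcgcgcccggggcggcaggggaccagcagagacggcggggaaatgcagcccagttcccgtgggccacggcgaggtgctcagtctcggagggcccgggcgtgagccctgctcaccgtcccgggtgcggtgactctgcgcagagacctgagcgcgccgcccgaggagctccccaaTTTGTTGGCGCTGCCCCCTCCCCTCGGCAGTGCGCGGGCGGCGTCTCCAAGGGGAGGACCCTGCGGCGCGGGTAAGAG
Adamts1: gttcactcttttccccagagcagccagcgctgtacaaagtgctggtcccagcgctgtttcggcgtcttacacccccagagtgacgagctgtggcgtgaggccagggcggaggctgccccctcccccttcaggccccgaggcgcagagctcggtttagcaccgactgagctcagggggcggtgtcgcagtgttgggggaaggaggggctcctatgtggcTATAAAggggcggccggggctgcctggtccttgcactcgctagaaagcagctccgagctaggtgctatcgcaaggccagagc
The windows lie at chr8:11312777-11313076 on the minus strand for *Col4a1*, at chr8:11312555-11312854 on the plus strand for *Col4a2*, and at chr16:85803064-85803363 on the minus strand for *Adamts1*. The TATAAA match in *Adamts1* began 32 bases before the start. Letters were searched on both strands of every window. TATAAA occurred in 8 of 31 windows of the matrix genes (25.8%), against 13.6% of all windows of this length, and the 7 genes holding it were *Adamts1*, *Col3a1*, *Ogn*, *Postn*, *Sulf2*, *Thbs2* and *Tnc*. The TEAD motif GGAATG occurred in 6 of 31 (19.4%), against 14.7% of all. The AP-1 motif TGANTCA was in 2 of 31 (6.45%), against 7.81%, in *Col6a1* and *Efemp1*. The STAT motif TTCNNNGAA and the SMAD palindrome GTCTAGAC were in 0 of 31, against 8.3% and 0.213% of all windows. These are descriptions of the letters and were not tested.

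Over both regions, *Thbs1* and *Sulf1* rose after hyperoxia. *Thbs1* encodes thrombospondin-1, a matricellular protein that restrains the growth of blood vessels and can activate latent TGF-beta, and it was 1.77-fold higher. *Sulf1* encodes a sulphatase that trims 6-O-sulphates from the heparan sulphate chains outside cells, and it was 1.40-fold higher. No matrix gene fell past the threshold. Of the 38, 2 were called at an adjusted p under 0.05, both higher, against 0.568% of all 28853 probe sets called in either direction. At an unadjusted p under 0.05, 8 passed, all higher, against 8.98% of all probe sets in either direction. The median difference was 0.07 over the matrix genes and 0.004 over all probe sets, and 28 of 38 were above 0.

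The matricellular gene *Thbs1* had log2 levels of 8.30 and 8.01 in hyperoxia-exposed inferior retina, against 7.12 and 7.39 in control inferior retina. In the superior region its levels were 7.80 and 7.80 after hyperoxia, against 6.86 and 7.23 in controls. Every hyperoxia-exposed array lay above every control array. The difference over both regions was 0.82 (SE 0.11, limma adjusted p = 0.0167). It was 0.90 in the inferior region (SE 0.15, adjusted p = 0.0596) and 0.75 in the superior region (SE 0.15, adjusted p = 0.448). The inferior change minus the superior change was 0.15, with a 95% interval of -0.35 to 0.64. The call over both regions was lost in 4 of the 8 fits that left out 1 array, without hyperoxia inferior replicate 1 (adjusted p = 0.0643), hyperoxia superior replicate 1 (0.0964), hyperoxia superior replicate 2 (0.101) or control superior replicate 1 (0.0636). The largest and smallest differences without an array were 0.92 and 0.73.

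*Sulf1* had levels of 9.59 and 9.57 in hyperoxia-exposed inferior retina, against 8.85 and 8.81 in control inferior retina. In the superior region the levels were 9.12 and 9.13 after hyperoxia, against 9.00 and 8.81 in controls. The groups did not overlap in either region, and the exposed inferior arrays stood above the other 6. The difference over both regions was 0.48 (SE 0.07, limma adjusted p = 0.0183). Leaving out 1 array gave adjusted p-values up to 0.103, and the call was lost in 6 of 8 such fits, without hyperoxia inferior replicate 1 (0.0738) or 2 (0.0815), control inferior replicate 2 (0.0536), hyperoxia superior replicate 1 (0.0964) or 2 (0.103), or control superior replicate 2 (0.0831).

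**Figure D1:**
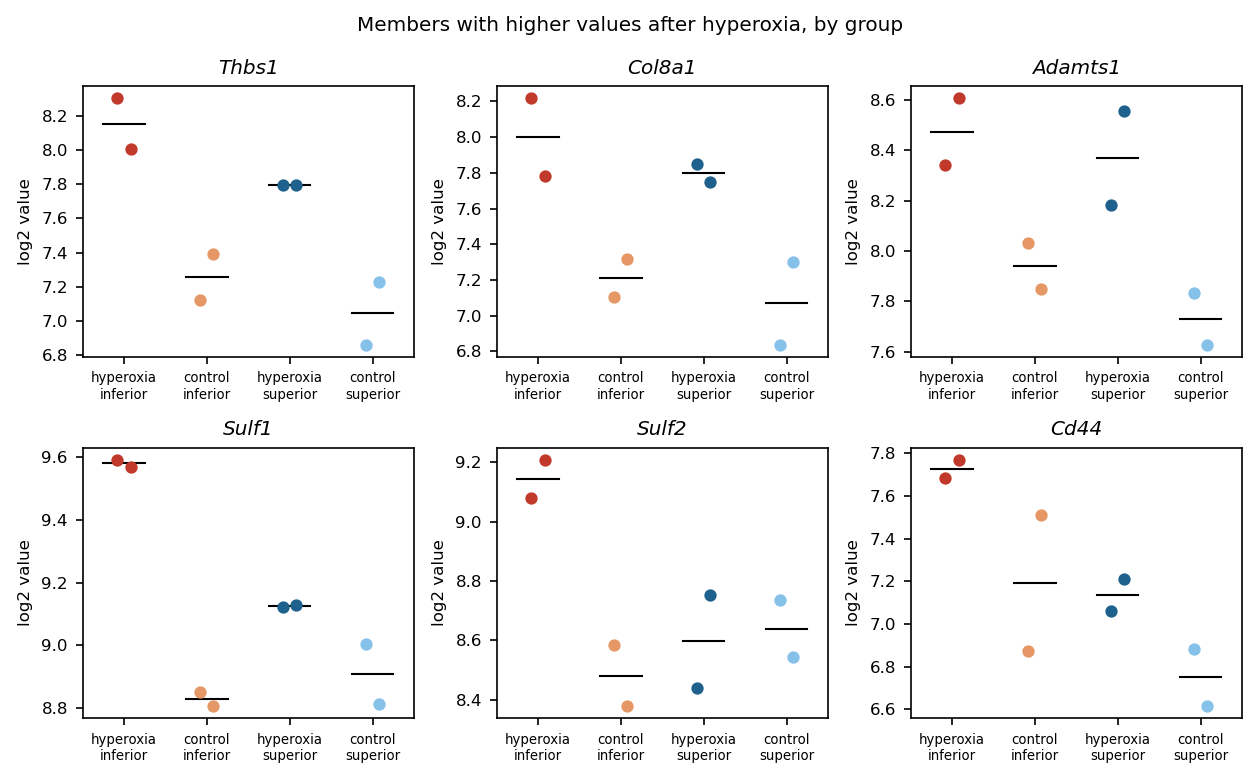
Log2 level (vertical axis) of 6 matrix genes in hyperoxia-exposed inferior, control inferior, hyperoxia-exposed superior and control superior retina. Points are the 2 arrays of a group and lines their means, and vertical axes differ between genes and do not start at 0. *Thbs1*, *Col8a1* and *Adamts1* were higher after hyperoxia in both regions, while *Sulf1* and *Sulf2* were highest in exposed inferior retina.

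A further 4 genes were higher on both exposed arrays than on both control arrays in each region. *Col8a1*, *Adamts1*, *Cd44* and *Col1a2* made up, with *Thbs1* and *Sulf1*, 6 genes of 38 without overlap and higher in both regions, against 4.98% of all probe sets, and 0 were lower in both, against 4.34%. *Col8a1* encodes a short-chain collagen of Descemet's membrane and vessel walls. Its levels were 8.22 and 7.78 in exposed inferior retina, against 7.11 and 7.32 in control inferior retina. In superior retina they were 7.85 and 7.75 after hyperoxia, against 6.84 and 7.30 in controls. Exposed and control arrays were apart in both regions, by 0.76 over both (SE 0.13, fold 1.69, limma adjusted p = 0.0502), on the edge of the threshold. *Adamts1* encodes a protease that cleaves versican and other large proteoglycans. It had levels of 8.34 and 8.61 in exposed inferior retina, against 8.03 and 7.85 in control inferior retina. In superior retina it had 8.18 and 8.55 after hyperoxia, against 7.83 and 7.63 in controls. The exposed arrays were all above the controls, and the difference over both regions was 0.58 (SE 0.11, adjusted p = 0.0693). *Cd44*, the hyaluronan receptor of glia and leukocytes, had 7.69 and 7.77 in exposed inferior retina, against 6.87 and 7.51 in control inferior retina. Its superior levels were 7.06 and 7.21 after hyperoxia, against 6.88 and 6.62 in controls. Control inferior replicate 2 lay nearer the exposed arrays than its partner, and the difference over both regions was 0.46 (adjusted p = 0.315). Without that array, which left 1 control inferior array, the difference was 0.62. Over all fits without 1 array it ran from 0.30 to 0.62. *Col1a2*, a chain of type I collagen, differed by 0.18 over both regions (adjusted p = 0.452).

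By class, the differences over both regions of the matricellular proteins ran from -0.14 for the adhesion-modulating *Tnc* to 0.82 for *Thbs1*. Fibrillar collagens, the rope-like collagens of connective tissue, lay between -0.05 for *Col1a1* and 0.18 for *Col1a2*, and 0 of 5 were called. The other collagens ran from -0.28 for *Col4a1* to 0.76 for *Col8a1*, also with 0 called. Proteoglycans spanned -0.13 for *Ogn*, a small leucine-rich proteoglycan, to 0.21 for *Vcan*. The fibre glycoproteins were -0.09 for *Fn1*, fibronectin, and 0.23 for *Efemp1*, a fibulin. All 7 enzymes were above 0, from 0.01 for the collagen cross-linker *Lox* to 0.58 for *Adamts1*, and 1, *Sulf1*, was called. Basement membrane glycoproteins ran from -0.49 for *Nid1* to 0.004 for *Lamc1*. Of this class, *Nid1* and *Lama2* are taken up separately below, because 1 array stood far above the rest in both.

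**Figure D2:**
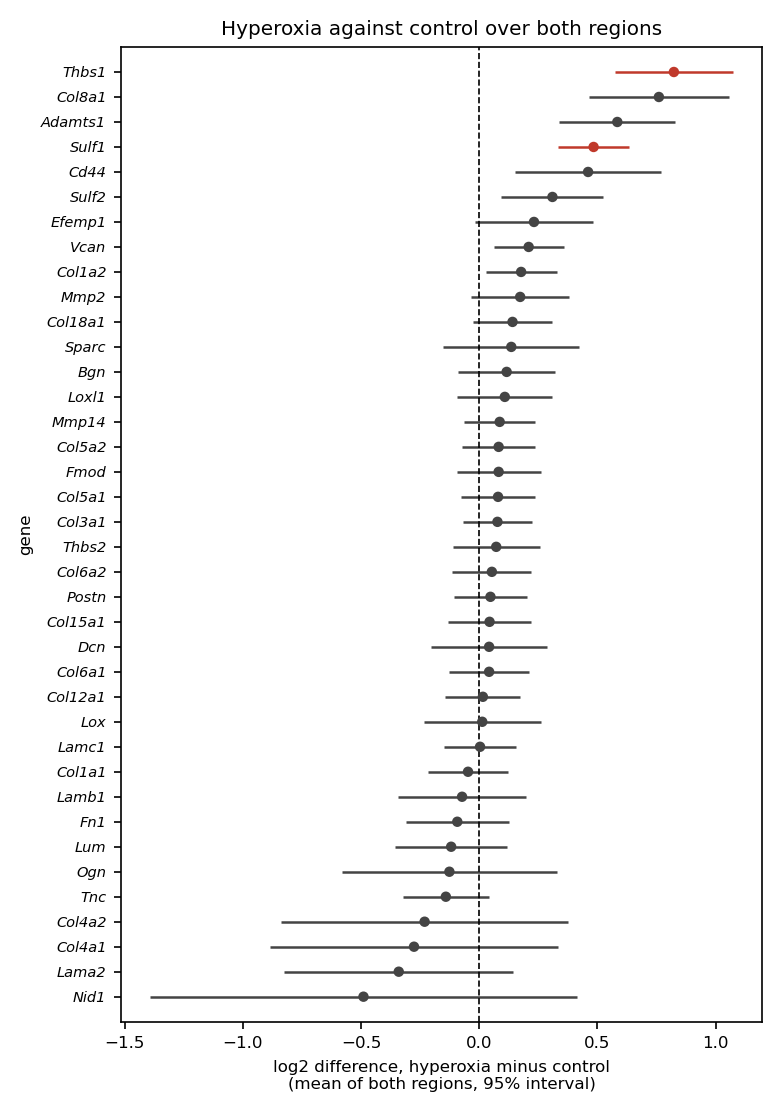
Difference between hyperoxia-exposed and control retina over both regions for the 38 matrix genes, in log2 (horizontal axis), with genes ordered by size on the vertical axis. Points are the differences, bars the 95% intervals of the limma fit, and red marks an adjusted p under 0.05, which *Thbs1* (0.82) and *Sulf1* (0.48) reached.

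In the inferior region alone, *Sulf1* rose by 0.75 (SE 0.09, 1.68-fold, limma adjusted p = 0.0131) and was the 1 matrix gene called, against 0.492% of all probe sets in either direction. At an unadjusted p under 0.05, 6 were higher and 1 was lower, against 9.39% of all probe sets. The arrays did not overlap for 8 genes that were higher and 2 that were lower, against 20.5% and 18.1%. The *Sulf1* call was lost without hyperoxia inferior replicate 1 (0.0852) or 2 (0.114), or control inferior replicate 2 (0.0672), and when only the 4 inferior arrays were fitted (adjusted p = 0.0902). Its relative *Sulf2*, a sulphatase of the same reaction, had levels of 9.08 and 9.21 in exposed inferior retina, against 8.58 and 8.38 in control inferior retina. In superior retina *Sulf2* had 8.44 and 8.75 after hyperoxia, against 8.74 and 8.54 in controls. The inferior groups were apart, and the superior groups overlapped. Its inferior difference was 0.66 (SE 0.13, adjusted p = 0.0983) and its superior difference -0.04. *Thbs1* had the smallest p-value after *Sulf1*, and *Col8a1* (0.79, adjusted p = 0.140) and *Adamts1* (0.53, adjusted p = 0.265) came after *Sulf2*. *Sulf1* and *Sulf2* are among the genes the study listed from these same arrays, so their differences are not independent evidence of a direction.

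In the superior region 0 of 38 were called, against 0.0173% of all probe sets, by limma. At an unadjusted p under 0.05, 7 were higher and 1 lower, against 5.59%. The exposed arrays lay above the controls without overlap for 21 genes and below for 2, against 18.7% and 17.2% of all probe sets. The median difference was 0.13 over the matrix genes and 0.002 over all probe sets, and 31 of 38 were above 0. The smallest p-values were those of *Vcan* (0.56, SE 0.09, adjusted p = 0.277), *Thbs1*, *Adamts1* (0.64, adjusted p = 0.549), *Col8a1* (0.73, adjusted p = 0.618) and *Col18a1*. *Col18a1* encodes the basement membrane collagen whose end fragment is endostatin. Its levels were 8.04 and 8.18 in exposed superior retina, against 7.79 and 7.82 in control superior retina. In inferior retina it had 7.98 and 8.19 after hyperoxia, against 8.14 and 8.07 in controls. Only the control superior arrays stood apart. The adjusted p was 0.796 for its superior difference of 0.30. The control superior arrays were low over much of the list. They held the lowest value for 10 and 9 of the 38 genes, against 13.3% and 10.6% of all genes. Their median deviation from the gene means was -0.10 and -0.15 over the matrix genes, against 0.002 and -0.01 over all genes. The same 2 arrays enter the comparison between the control regions below, so the 2 median differences are not separate findings.

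**Figure D3:**
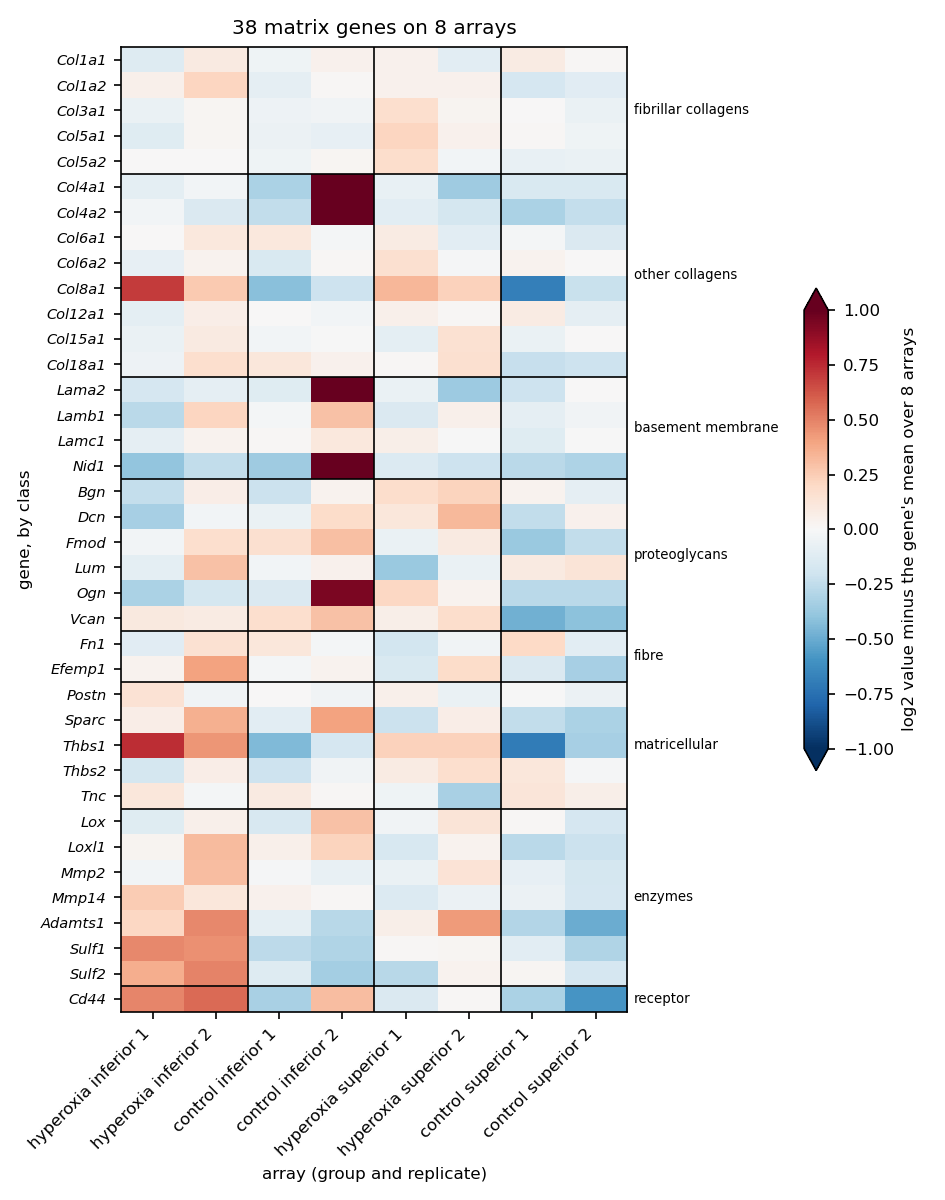
The 38 matrix genes (vertical axis, by class) on the 8 arrays (horizontal axis), coloured by the log2 value minus the gene's mean over the arrays, with colours capped at -1 and 1. *Nid1*, *Col4a1*, *Col4a2*, *Lama2* and *Ogn* are highest on control inferior replicate 2, and *Thbs1*, *Col8a1* and *Adamts1* are higher in the exposed groups.

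Between the regions of control retina, *Vcan* and *Fmod* had the smallest p-values, both with higher levels in inferior retina, though 0 of 38 passed the adjusted threshold in a comparison where 0% of all probe sets did. *Vcan* encodes versican, a large chondroitin sulphate proteoglycan that binds hyaluronan. It had levels of 7.78 and 7.90 in control inferior retina, against 7.13 and 7.20 in control superior retina. After hyperoxia it had 7.71 and 7.69 in inferior retina, against 7.67 and 7.79 in superior retina. The control superior arrays stood below the other 6, which overlapped. The control difference was 0.68 (SE 0.09, 1.60-fold, limma adjusted p = 0.814), and after hyperoxia it was -0.03. *Fmod* encodes fibromodulin, a small leucine-rich proteoglycan that binds collagen fibrils. Its levels were 8.11 and 8.25 in control inferior retina, against 7.58 and 7.70 in control superior retina. After hyperoxia they were 7.92 and 8.12 in inferior retina, against 7.88 and 8.04 in superior retina. Here too the control superior arrays were lowest. The control difference was 0.54 (SE 0.11, adjusted p = 0.848). *Vcan* is among the genes the study listed on these samples and is not independent evidence of a direction.

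*Loxl1*, a lysyl oxidase that cross-links elastin, had levels of 7.32 and 7.49 in control inferior retina, against 6.999 and 7.05 in control superior retina. After hyperoxia its levels were 7.30 and 7.59 in inferior retina, against 7.11 and 7.31 in superior retina. The control regions were apart by 0.38 (adjusted p = 0.909), whereas the exposed regions overlapped. *Sparc*, a collagen-binding matricellular protein made by glia, had 10.36 and 10.86 in control inferior retina, against 10.22 and 10.15 in control superior retina. After hyperoxia it had 10.53 and 10.82 in inferior retina, against 10.25 and 10.54 in superior retina. The control difference was 0.43 (adjusted p = 0.930), with control inferior replicate 2 the highest array. At an unadjusted p under 0.05, 7 were higher in inferior retina and 0 lower, against 5.30% of all probe sets in either direction. Non-overlapping values were higher in inferior retina for 15 genes and lower for 3, against 17.5% and 16.7%. The median difference was 0.13, against 0.002 over all probe sets.

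In hyperoxia-exposed retina, 0 of 38 differed between the regions at an adjusted p under 0.05, against 0.139% of all probe sets, in the limma fit. At an unadjusted p, 5 were higher in inferior retina and 1 lower, against 8.50%. Non-overlapping values were higher in inferior retina for 7 genes and lower for 7, against 20.0% and 18.5%. The largest differences toward inferior retina were those of *Cd44* (0.59, adjusted p = 0.471), *Sulf2* (0.55, adjusted p = 0.288) and *Sulf1* (0.46, adjusted p = 0.208). *Mmp14*, a membrane-bound collagenase that activates the gelatinase *Mmp2*, had levels of 8.15 and 8.01 in exposed inferior retina, against 7.76 and 7.84 in exposed superior retina. In controls it had 7.94 and 7.91 in inferior retina, against 7.84 and 7.73 in superior retina. The regions were apart in both conditions, by 0.28 after hyperoxia (adjusted p = 0.479) and 0.14 in controls. *Dcn*, the small proteoglycan decorin, ran the other way, with 5.64 and 5.94 in exposed inferior retina, against 6.08 and 6.29 in exposed superior retina. Its control levels were 5.90 and 6.15 in inferior retina, against 5.72 and 6.01 in superior retina, where the regions overlapped. The exposed difference was -0.40 (adjusted p = 0.555).

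For the difference between the changes in the regions, *Vcan* had the smallest p-value, although 0 of 38 passed the adjusted threshold, against 0.00347% of all probe sets. The inferior change minus the superior change was -0.71 for *Vcan* (SE 0.13, 95% interval -1.002 to -0.410, limma adjusted p = 0.367), -0.48 for *Fmod* (adjusted p = 0.754), 0.53 for *Sulf1* (adjusted p = 0.612) and 0.71 for *Sulf2* (adjusted p = 0.666). At an unadjusted p under 0.05, 2 were more positive in inferior retina and 4 more negative, against 6.04% of all probe sets. The 4 were all proteoglycans, and 0 proteoglycans were among the 2. Of the 6 proteoglycans, 5 were below 0 and 1, *Lum*, was above (0.42, adjusted p = 0.829). In the wider list described below, 1 of 30 other proteoglycan and hyaluronan genes was more positive at this unadjusted threshold and 0 more negative, with a median of 0.08. Of 31 other basement membrane and fibre glycoproteins, 0 were more positive and 7 more negative. *Vcan* and *Ogn* were the 2 genes with lower values after hyperoxia in inferior retina and higher values in superior retina without overlap in either, against 2.81% of all probe sets, and 0 had the opposite arrangement, against 2.39%. Larger differences with larger errors belonged to *Nid1* (-1.21, adjusted p = 0.863), *Ogn* (-1.04, adjusted p = 0.799) and *Col4a2* (-0.73, adjusted p = 0.883), the 3 of them highest on control inferior replicate 2.

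**Figure D4:**
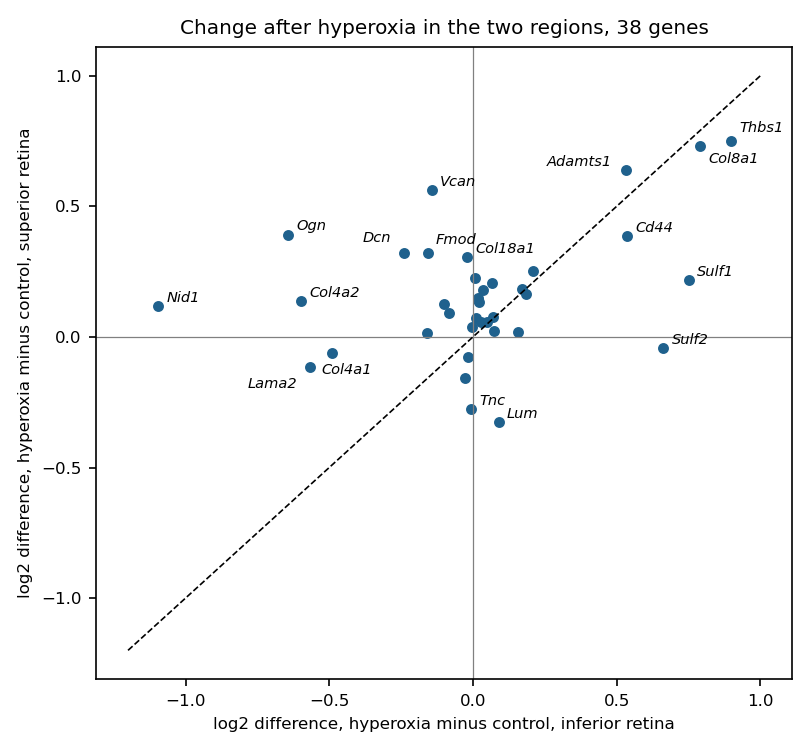
Difference between hyperoxia-exposed and control retina in the superior region (vertical axis) against that in the inferior region (horizontal axis), both in log2, for the 38 matrix genes, with the dashed line marking equal differences. *Thbs1*, *Col8a1* and *Adamts1* lie near the line, *Sulf1* and *Sulf2* lie to its right, and *Vcan*, *Fmod* and *Ogn* lie above it.

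*Nid1*, *Col4a1*, *Col4a2* and *Lama2*, which build basement membranes, had a single high array. *Nid1*, nidogen-1, links laminin to type IV collagen. Its levels were 5.86 and 6.01 in exposed inferior retina, against 5.90 and 8.17 in control inferior retina. Exposed superior retina had 6.12 and 6.05, against 5.99 and 5.95 in control superior retina. *Col4a1* had 7.30 and 7.37 in exposed inferior retina, against 7.08 and 8.57 in control inferior retina, and *Col4a2*, from the neighbouring promoter shown above, had 7.43 and 7.31, against 7.21 and 8.72. *Lama2*, a laminin alpha chain, had 5.50 and 5.58 in exposed inferior retina, against 5.54 and 6.67 in control inferior retina. *Ogn* had 6.15 and 6.29 in exposed inferior retina, against 6.32 and 7.41 in control inferior retina. Its superior levels were 6.68 and 6.50 after hyperoxia, against 6.20 and 6.20 in controls. In all 5 genes control inferior replicate 2 was the highest of the 8 arrays.

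Over all 38 genes, 11 (28.9%) were highest on that array, against 9.56% of all genes. The residual SD within groups was over 0.5 for 3 matrix genes (7.89%), *Nid1* (0.81), *Col4a1* (0.54) and *Col4a2* (0.53), against 0.301% of all genes. Its median was 0.14 over the matrix genes and 0.11 over all genes. The same array was the highest for all 16 lens genes measured of 17 listed, which encode crystallins and lens fibre proteins. Their median deviation from the gene means was 3.24 on it and between -0.82 and 0.03 on the other 7 arrays, and their summed signal was 15.51 on the log2 scale, against 10.56 and 11.27 in exposed inferior retina, 10.32 in control inferior replicate 1, 10.73 and 11.06 in exposed superior retina, and 10.52 and 11.78 in control superior retina. Type IV collagen, nidogen and laminin are also components of the lens capsule, and the part of lens tissue in these values was not tested. *Nid1* differed by -1.10 in the inferior region with all arrays and by 0.04 without control inferior replicate 2, *Col4a1* by -0.49 and 0.26, *Col4a2* by -0.60 and 0.15, and *Lama2* by -0.57 and -0.003. Without control inferior replicate 1, which left the other control inferior array alone, all 4 were called lower, from -1.13 for *Lama2* to -2.23 for *Nid1*, as was *Ogn* (-1.19). Without control inferior replicate 2, *Ogn* differed by -0.10 in the inferior region.

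**Figure D5:**
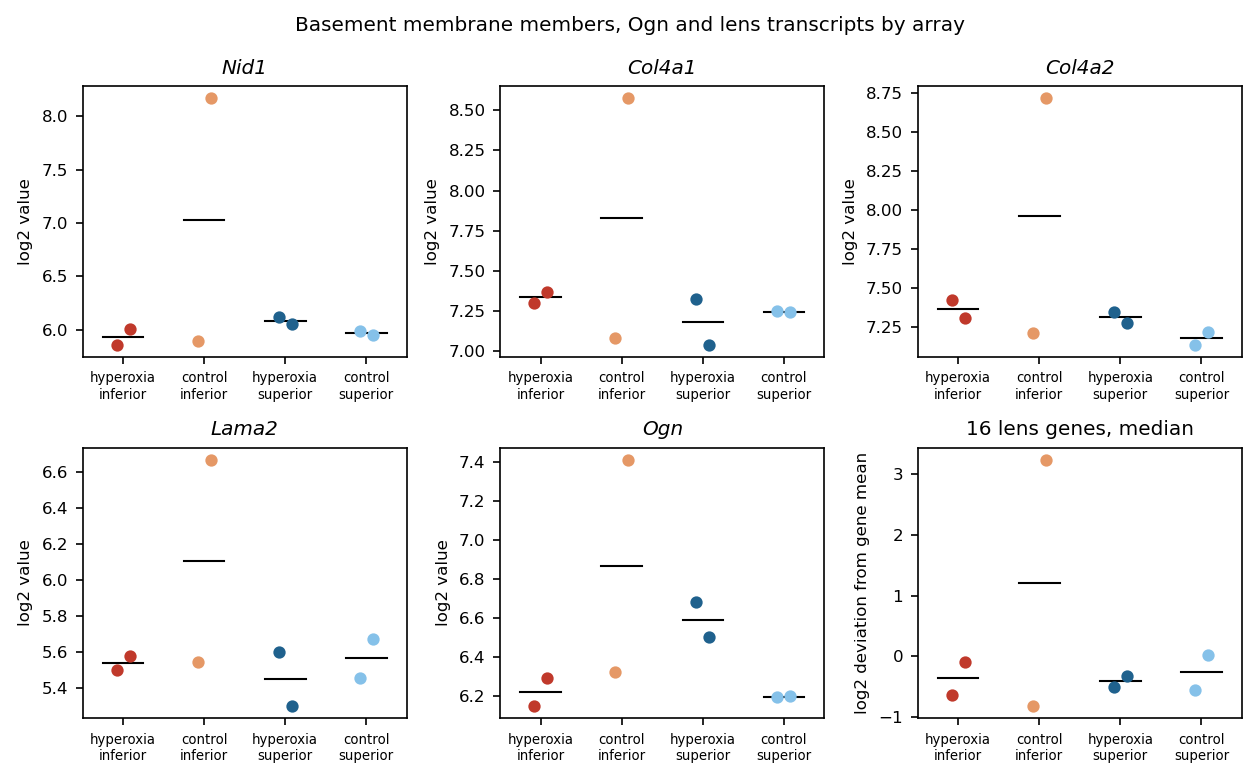
Log2 level (vertical axis) of *Nid1*, *Col4a1*, *Col4a2*, *Lama2* and *Ogn* in the 4 groups, with the median log2 deviation of 16 lens genes from their means in the last panel. Points are the 2 arrays of a group and lines their means, and control inferior replicate 2 is the highest point in every panel, at 8.17 for *Nid1* and 3.24 for the lens genes.

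Cell type markers were measured beside the matrix genes. Of 18 listed microglia and macrophage genes, 17 were measured. In the inferior region 12 were called higher with hyperoxia, against 0.492% of all probe sets called in either direction. Many, such as *C1qa*, *C1qb*, *C1qc* and *Csf1r*, are among the genes the study listed from these same arrays, so the count is not independent evidence. The median difference of the 17 genes in the inferior region was 1.25. Their summed signal was 12.47 and 12.64 in exposed inferior retina, against 11.08 and 11.14 in control inferior retina, and 11.53 and 11.56 in exposed superior retina, against 11.03 and 10.98 in control superior retina. The exposed inferior retina, where *Sulf1*, *Sulf2* and *Cd44* were highest, was also where these markers were highest, and their part in the levels of these 3 genes was not tested. For 10 retinal pigment epithelium genes, 0 were called by limma, and their median difference was 0.38 in the inferior and 0.71 in the superior region. Their summed signal ran in part with the levels of *Thbs1* and *Col8a1*. It was 13.32 and 12.88 in exposed inferior retina, against 12.12 and 12.84 in control inferior retina. In superior retina it was 13.06 and 13.06 after hyperoxia, against 11.47 and 12.60 in controls. *Thbs1*, *Col8a1* and the pigment epithelium sum were all highest on hyperoxia inferior replicate 1 and lowest on control superior replicate 1, and in exposed inferior, control inferior and control superior retina the array with the higher sum had the higher level of both genes. On hyperoxia inferior replicate 2 and control inferior replicate 2, 1 array of each group, the sums were close, at 12.88 and 12.84. The median deviation of the list ran the other way, at 0.03 and 0.14. There *Thbs1* had 8.01 and 7.39, and *Col8a1* had 7.78 and 7.32. The part of pigment epithelium in the differences of *Thbs1* and *Col8a1* was not tested.

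Of 10 genes listed for melanocytes, most of them pigment genes and so not specific to melanocytes, 0 were called. Their summed signals were 10.53 and 11.68 in exposed inferior retina, against 10.98 and 12.08 in control inferior retina. In superior retina the sums were 11.73 and 12.03 after hyperoxia, against 10.50 and 10.87 in controls. The median difference of the 10 genes between exposed and control retina was -0.32 in the inferior and 0.86 in the superior region. Between inferior and superior control retina it was 0.66. Not all listed genes followed these medians. In superior retina *Dct* had 10.38 and 10.80 after hyperoxia, against 8.56 and 9.32 in controls. *Sox10* had 7.13 and 7.15, against 7.15 and 7.19, and *Mitf* had 7.06 and 7.22, against 7.15 and 7.13. Of 10 genes listed for ciliary body and iris, 0 were called, and the medians of the same 3 comparisons were -0.11, 0.23 and 0.22. Their summed signals lay between 10.85 and 11.10 on the 8 arrays, but *Tfap2b* had the largest signal and weighed on the sum. In superior retina *Tfap2b* had 9.19 and 9.53 after hyperoxia, against 9.76 and 9.54 in controls. *Slc4a4* had 7.27 and 7.66, against 6.81 and 6.87. The flat sum is therefore no measure of these tissues. *Vcan*, *Fmod* and *Ogn* had the same signs as these medians in the 3 comparisons. So did *Dcn*, *Nid1*, *Col4a2*, *Col18a1*, *Lamb1*, *Lamc1* and *Lox*, so the signs are not particular to *Vcan*, *Fmod* and *Ogn*. The 3 comparisons share the control arrays, so the signs are not independent of each other. The sums of the melanocyte list were 10.53 on hyperoxia inferior replicate 1 and 10.50 on control superior replicate 1, 1 array of each group. Its median deviations there were -0.35 and -0.57. On these arrays *Vcan* had 7.71 and 7.13, *Fmod* 7.92 and 7.58, and *Ogn* 6.15 and 6.20. The part of either tissue in the values of these 3 genes was not tested. Of 8 astrocyte genes 1 was called higher in each region. Of 12 Müller cell genes, 1 was called higher and 1 lower in the inferior region. Of the 13 fibroblast, 15 endothelial and 12 pericyte genes, 0 were called in any comparison, and their median differences with hyperoxia were between -0.06 and 0.08 in each region. These lists share no gene with the 38.

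In the wider set of matrix genes, 192 others were measured, 4 of which were called in the inferior region, 3 of them higher, against 0.492% of all probe sets called in either direction there. *Timp1*, an inhibitor of matrix metalloproteinases, had log2 levels of 7.42 and 7.22 in exposed inferior retina, against 5.96 and 5.76 in control inferior retina. In superior retina it had 6.21 and 6.10 after hyperoxia, against 5.89 and 6.05 in controls. Its inferior difference was 1.46 (limma adjusted p = 0.00114), and it was the 1 gene of the 192 called between the regions of exposed retina (1.16, adjusted p = 0.0126). *Antxr2*, a receptor for laminin and type IV collagen, had 9.47 and 9.28 in exposed inferior retina, against 8.26 and 8.17 in control inferior retina. Its superior levels were 8.71 and 8.79 after hyperoxia, against 8.34 and 8.44 in controls. Exposed and control arrays were apart in both regions, by 0.76 over both (adjusted p = 0.00295). Both genes are among those the study listed from these arrays.

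*Pcolce*, which speeds the trimming of fibrillar procollagens, had 9.26 and 9.38 in exposed inferior retina, against 8.16 and 8.65 in control inferior retina. In superior retina it had 8.79 and 8.86 after hyperoxia, against 8.08 and 8.10 in controls. It rose by 0.82 over both regions (adjusted p = 0.0150) while the fibrillar collagens themselves lay between -0.05 and 0.18. *P4ha1*, the catalytic subunit of the collagen prolyl hydroxylase and a target of hypoxia signalling, moved the other way. It had 8.81 and 8.65 in exposed inferior retina, against 9.54 and 9.73 in control inferior retina. In superior retina it had 8.98 and 9.05 after hyperoxia, against 9.40 and 9.52 in controls. The exposed arrays were below the controls in both regions, and it fell by 0.67 over both (SE 0.08, limma adjusted p = 0.00787).

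Among the other tissue inhibitors of metalloproteinases, *Timp3*, which is bound to Bruch's membrane, differed by 0.39 over both regions (adjusted p = 0.198). *Timp4* differed by 0.43 (adjusted p = 0.250) and *Timp2* by 0.24 (adjusted p = 0.595) in the inferior region. In the superior region they differed by -0.12 and -0.06, and over both regions by 0.15 and 0.09. Over both regions, 3 of the 192 genes were called higher and 1 lower, namely *Timp1*, *Antxr2*, *Pcolce* and *P4ha1*. In the superior region, between the regions of control retina, and for the difference between the changes, 0 of the 192 were called, and at an unadjusted p under 0.05 these comparisons held 26, 21 and 15 of the 192, against 5.59%, 5.30% and 6.04% of all probe sets. By group, 0 of 27 other collagens, 0 of 31 basement membrane and fibre glycoproteins, 0 of 17 matricellular proteins, 0 of 30 proteoglycan and hyaluronan genes and 0 of 41 matrix proteases were called in any of the 6 comparisons.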

How the data were processed

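RNA of 8 samples was hybridised to Affymetrix Mouse Gene 1.0 ST arrays. The authors imported the arrays into Partek, applied RMA background correction and median polish, and deposited log2 values for 28853 probe sets. Their versions and the genome build were not given in the sources used here. Low signals are compressed in such values, and the 2 arrays per group limit the precision. Gene symbols came from the platform annotation, in which 21789 probe sets had 1 symbol, 1621 several and 5443 none listed; 38 Entrez IDs of the matrix genes matched the RefSeq gene table.

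The log2 values were fitted in R 4.3.3 with limma 3.58.1 (lmFit, a mean for each of 4 groups over all 8 arrays, eBayes; 4 residual and 4.47 prior degrees of freedom). P-values are two-sided. The Benjamini-Hochberg adjustment covered the 28853 probe sets of the table, and calls were made under 0.05. The 6 comparisons share arrays: both changes with hyperoxia enter the mean over regions. The fit was tested on simulated data. The matrix genes, the wider list, the markers and the tests were chosen with earlier results of these data known. Values on every array are given for the genes called and for the 5 smallest p-values of each comparison; other genes are given by class with the lowest and highest. Replicate pools were run independently, and no source ties replicate numbers to shared animals. Alternatives were quantile normalisation, median centring, a mean of at least 6, only 1-symbol probe sets, the methods' t-test, a variance trend, the replicate number as a block, only the arrays of a comparison, averaging the probe sets that name 1 gene, and leaving out each array. Those for the wider list were added after seeing the data. Averaging probe sets could not change the values of the 38 matrix genes, because each had a single probe set.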

Additional observations from a re-analysis of the deposited data

Results flagged for a closer look

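*Ogn* and *Vcan* differed in opposite directions between exposed and control retina in the regions, with lower values on both exposed inferior arrays than on both control inferior arrays and higher values on both exposed superior arrays than on both control superior arrays. The inferior change minus the superior change was -1.04 for *Ogn* (limma adjusted p = 0.799) and -0.71 for *Vcan* (adjusted p = 0.367), so neither difference passed the test. For *Ogn*, it was -0.49 without control inferior replicate 2, the array with high lens genes. The median over 10 genes listed for melanocytes had the same signs (-0.32 in the inferior and 0.86 in the superior region, a difference of -1.19). So did that over 10 genes listed for ciliary body and iris (-0.11 and 0.23, a difference of -0.32). Not all genes of either list shared these signs. *Sox10* and *Mitf* of the first list and *Tfap2b* of the second did not rise in the superior region. The part of these tissues in the values of *Ogn* and *Vcan* was not tested.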

How the results depend on the processing

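Where a comparison had few calls, small changes in setting moved the count. In the inferior region 1 matrix gene was called after hyperoxia, against 3 with a mean of at least 6, 2 with only 1-symbol probe sets, 3 with a variance trend, 0 with only the inferior arrays and, by the methods' t-test, 0 after Benjamini-Hochberg and 5 at an unadjusted p under 0.05. Leaving out 1 array gave 0 to 6, the 6 without control inferior replicate 1 (1 higher, 5 lower). Over both regions the 2 calls became 4, 4 and 4 under the same first 3 settings, 0 and 7 by the methods' t-test, and 0 to 6 without 1 array. The methods' t-test at an unadjusted p called 7 in the superior region, 3 between the regions of exposed retina, 3 between those of control retina and 4 for the difference between the changes. The share of all probe sets called by this t-test at an unadjusted p is not given here, so its counts have no background beside them. Leaving out 1 array gave 0 to 4 between the regions of control retina and 0 to 3 for the difference between the changes.

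The median over the matrix genes ranged without 1 array from -0.0649 to 0.0887 for the inferior change, from -0.0256 to 0.120 between the exposed regions, from 0.0358 to 0.138 between the control regions, and from -0.151 to -0.00149 for the difference between the changes. The sign turned without control inferior replicate 2 for 3 basement membrane genes. Over the fits without 1 array, *Col4a1* ran from -1.24 to 0.257, *Col4a2* from -1.35 to 0.154 and *Nid1* from -2.23 to 0.0397 in the inferior region. Over both regions the same genes ran from -0.649 to 0.0978, from -0.607 to 0.145 and from -1.06 to 0.0782. Between the control regions *Col4a1* ran from -0.166 to 1.33 and *Nid1* from -0.0706 to 2.20, and the difference between the changes of *Col4a2* ran from -1.49 to 0.0178.

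For the wider list, with 4 calls in the inferior region, 4 over both regions and 1 between the exposed regions, the methods' t-test after Benjamini-Hochberg gave 0 in each. Fitting only the inferior arrays gave 2, a variance trend 7 over both regions and 2 between the exposed regions, and a mean of at least 6 gave 2 there. Without 1 array the counts were 2 to 5 in the inferior region, 2 to 5 over both regions, 0 to 1 between the exposed regions, 0 to 2 between the control regions and 0 to 1 for the difference between the changes.

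The replicate numbers were not taken to pair the arrays. Correlations between groups of the differences between replicates lay between -0.0213 and 0.144 over all probe sets, and between -0.391 and 0.525 over the matrix genes, the highest for exposed inferior with exposed superior retina. With a block for the replicate number, 1 matrix gene was called in the inferior region and 2 over both, and no count moved. The 2 arrays per group limit the precision.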
